A study of Mus musculus with 4 samples.

Results

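The nuclear genes of oxidative phosphorylation were followed in spleen cells of mice given TNF or PBS. They were taken by symbol, as all genes whose names start with Nduf, Uqcr, Atp5, Cox4i, Cox5, Cox6, Cox7 or Cox8 together with Sdha, Sdhb, Sdhc, Sdhd and Cycs, and without symbols containing -ps, the mark of pseudogenes. This gave 94 genes of the 32285 features counted. The study had 4 droplet-based (10x Genomics) single-cell libraries from spleens of 10-week-old mice on the C57BL/6 background, 1 library per group. The groups were TRIF-KO mice with TNF, TRIF-KO mice with PBS, wild-type C57BL/6 mice with TNF and wild-type C57BL/6 mice with PBS. TNF groups received 9 µg of recombinant mouse TNF intravenously in 100 µl, PBS groups received PBS alone, and spleens were taken 4 h later, red cells lysed and dead cells removed. TRIF, encoded by Ticam1, passes on signals from the Toll-like receptors TLR3 and TLR4, and the design sets its absence against the response to TNF. The labels do not name the TRIF-KO allele or say how many mice entered a library.

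Oxidative phosphorylation takes place in the inner mitochondrial membrane. Complexes I and II pass electrons to complex III, the small protein cytochrome c carries them on to complex IV, and ATP synthase uses the proton gradient that complexes I, III and IV build. A small set of core subunits is encoded in mitochondrial DNA, while all other subunits, and all of complex II, come from nuclear genes. Mature neutrophils are known for living largely on glycolysis with few mitochondria, and erythroid cells lose their mitochondria as they mature.

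With 1 library per group there is no replicate and no test. All intervals are exact 95% counting intervals, which cover counting error only and not the spread between mice. Libraries kept 6606, 5364, 4966 and 2448 cells (TRIF-KO TNF, TRIF-KO PBS, wild-type TNF, wild-type PBS, the order of every list of 4 values), with 59088436, 29449611, 29876963 and 22374948 UMIs, each UMI standing for 1 captured RNA molecule. Library pairs shared 3 to 15 cell barcodes. Cells were classed by marker genes, and 6 classes had at least 50 cells in every library, namely B-like, T-like, NK-like, neutrophil-like, monocyte/macrophage-like and erythroid-like cells. In each of these 6 classes all markers of its own list were detected in every library. Ticam1 was counted at 5.79, 8.52, 3.75 and 6.88 CPM over all kept cells, so it was not lower in the TRIF-KO libraries. Reads from 1 end of a transcript may lie outside an altered part, so this count does not check the genotype labels.

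The 94 genes comprised 7 core subunits, 29 accessory subunits and 8 assembly factors of complex I, 4 subunits of complex II, 8 of complex III, 20 of complex IV, 17 of ATP synthase, and Cycs. For a gene to count as measured, its class needed 100 or more UMIs across the 4 libraries and 50 CPM or more in 1 of them, CPM being UMIs per 1000000 UMIs of the class. By this rule 75 genes were measured in B-like, 76 in T-like, 76 in NK-like, 53 in neutrophil-like, 77 in monocyte/macrophage-like and 56 in erythroid-like cells. 47 were measured in all 6 classes and 15 in none, and Cox7b2 and Cox8b had no UMI. Because a gene can pass through 1 high library, shares below refer to measured genes and not to all 94.

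Promoter sequence is shown for 3 genes that stand for the set: Atp5e, which had the most UMIs of all, Cox6a1, the ubiquitous partner of the cell-type-restricted Cox6a2, and Cox7a2l, which had the lowest TNF to PBS ratio of the measured genes in monocyte/macrophage-like cells of both genotypes. RefSeq promoters (GRCm38.p6, from 250 bases before to 50 after each start) were found for 77 of the 94 genes. The search on both strands used the NRF1 palindrome, CCGGAAG for ETS/GABP and the YY1 motif around ATGGCGG, factors known to control many nuclear respiratory genes. At least 1 of these motifs was present at 38 of 77 genes (49.4%), against 20.1% of all 17492 genes with a promoter. NRF1 was matched at 24.7% of the 77 genes against 7.17% of all genes, ETS/GABP at 24.7% against 12.9%, and YY1 at 9.09% against 2.26%. TATAAA was matched at 10.4% of the 77 genes and at 14.8% of all genes. The stretches below, all from the minus strand, hold the bases upstream of the start that no annotated exon overlaps. Capitals mark a motif match. They lie at chr2:174464106-174464351 (Atp5e, 1 ETS/GABP match), chr5:115348982-115349129 (Cox6a1, NRF1 matches at 2 positions) and chr17:83514334-83514583 (Cox7a2l, no match, inside the gene's GENCODE interval).
Atp5e, promoter stretch: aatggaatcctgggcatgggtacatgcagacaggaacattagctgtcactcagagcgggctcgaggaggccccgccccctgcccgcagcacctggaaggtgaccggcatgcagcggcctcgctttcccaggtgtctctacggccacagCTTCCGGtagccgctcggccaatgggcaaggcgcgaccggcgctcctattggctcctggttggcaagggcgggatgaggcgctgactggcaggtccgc
Cox6a1, promoter stretch: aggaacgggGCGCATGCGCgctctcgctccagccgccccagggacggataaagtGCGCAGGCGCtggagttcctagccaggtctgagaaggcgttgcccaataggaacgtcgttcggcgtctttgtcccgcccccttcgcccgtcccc
Cox7a2l, promoter stretch: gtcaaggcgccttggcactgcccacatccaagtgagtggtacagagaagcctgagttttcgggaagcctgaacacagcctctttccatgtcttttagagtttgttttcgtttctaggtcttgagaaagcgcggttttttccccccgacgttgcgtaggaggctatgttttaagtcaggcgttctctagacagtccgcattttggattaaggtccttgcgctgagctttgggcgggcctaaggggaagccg
A match is a description of the letters and not evidence of binding, and no match says only that these letters are not in the window.

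The summed level of the 94 genes set the classes apart in the same order in every library at the upper end: NK-like, then monocyte/macrophage-like, T-like and B-like cells. NK-like cells held 21751, 20645, 22134 and 18741 CPM. Monocyte/macrophage-like cells held 19723, 18919, 17404 and 18249 CPM. T-like cells held 16715, 17062, 16951 and 15625 CPM, and B-like cells held 15134, 16324, 15320 and 14585 CPM. The counting intervals of neighbours in this order overlapped for NK-like and monocyte/macrophage-like cells in the wild-type PBS library and in no other case. The second place did not hold for every part of the monocyte/macrophage-like class. Its macrophage-gated cells were at 17297, 13855, 15202 and 13886 CPM, below both T-like and B-like cells except in the TRIF-KO TNF library. Its other cells were at 21129, 20907, 18971 and 20622 CPM. Neutrophil-like cells (6436, 9596, 6823 and 7312 CPM) and erythroid-like cells (6483, 6295, 7001 and 8690 CPM) were lowest, and their order changed between libraries, with neutrophil-like cells above erythroid-like cells in the TRIF-KO PBS library and below in the other 3. In both TNF libraries the intervals of these 2 classes overlapped.
The order depends on what the total contains. Haemoglobin made up 71.4%, 74.5%, 69.3% and 61.5% of all UMIs in erythroid-like cells. In a total without mitochondrial, ribosomal protein, haemoglobin and immunoglobulin genes, the medians over the 4 libraries were 31095 CPM in T-like, 29172 in NK-like, 28364 in erythroid-like, 25617 in B-like and 24935 in monocyte/macrophage-like cells. Neutrophil-like cells stayed apart at 7461 CPM. Their low level therefore held in both totals, while that of the pooled erythroid-like cells held only in the full one. The pool mixed unlike clusters. With haemoglobin alone left out, cluster 7 (24.7%, 25.1%, 28.6% and 33.5% of erythroid-like cells) was at 12210, 14346, 13073 and 11863 CPM. This was below B-like cells in the full total in every library. Cluster 11 was above them at 22388, 26412, 23049 and 20992 CPM, and clusters 6 and 17 lay on both sides. In neutrophil-like cells the 9 neutrophil markers alone, S100a8 and S100a9 among them, summed to 318294, 208331, 258317 and 190164 CPM.

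**Figure D1:**
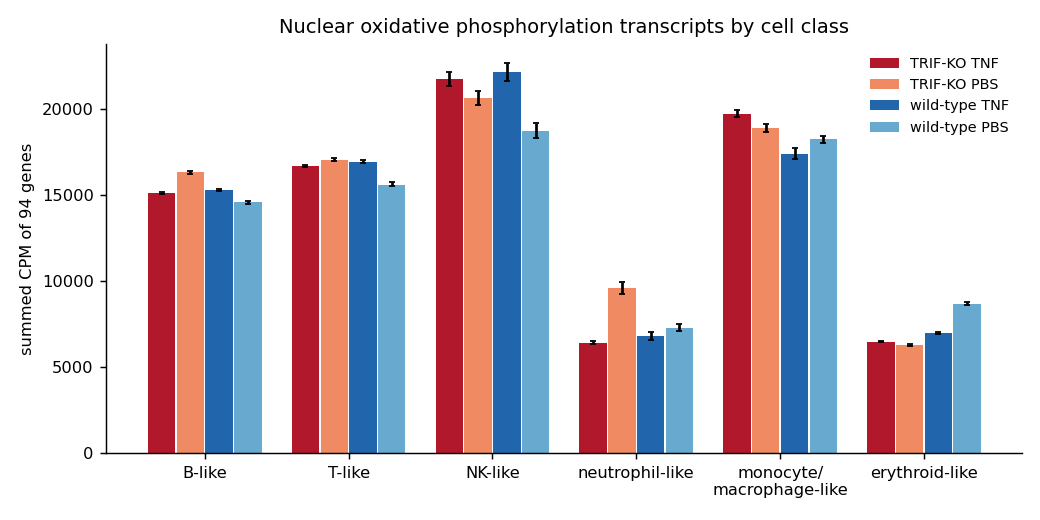
Summed CPM of the 94 nuclear genes (y axis) in 6 cell classes (x axis), 1 bar per library, with exact 95% Poisson intervals that cover counting error only. NK-like cells lie between 18741 and 22134 CPM, and neutrophil-like and erythroid-like cells between 6295 and 9596 CPM.

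3 rarer classes had too few cells for a comparison and are given as levels. Plasmacytoid dendritic-like cells (13, 19, 7 and 6 cells) held 22649, 20946, 24289 and 18667 CPM, from just below to above the NK-like range of 18741 to 22134 CPM. These sums include Cox6a2, which was nearly absent from NK-like cells. Conventional dendritic-like cells (8, 13, 2 and 20 cells) held 19994, 18897, 16831 and 16739 CPM. Plasma cell-like cells (8, 6, 11 and 8 cells) held 10762, 11240, 8242 and 13939 CPM, below B-like cells in every library.

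The large complexes held similar shares of the sum in all classes. ATP synthase supplied 30.3% to 32.6% of the members' UMIs over the 6 classes and 4 libraries, complex IV 26.9% to 31.0%, accessory complex I 21.5% to 25.7% and complex III 7.72% to 10.8%. Complex I core subunits (1.79% to 3.40%) and complex II (1.12% to 2.49%) supplied less and varied more in proportion. Assembly factors of complex I ranged between 0.478% and 1.51%, and Cycs between 0.137% (neutrophil-like, TRIF-KO PBS) and 1.11% (monocyte/macrophage-like, wild-type TNF). The 10 genes with the most UMIs, led by Atp5e (the epsilon subunit of ATP synthase), Uqcrh (the hinge subunit of complex III), Cox4i1 and Cox8a (complex IV), held 32.2% of the UMIs of the set.
In B-like cells Atp5e had 742, 817, 767 and 732 CPM. It had 297, 501, 349 and 392 CPM in the neutrophil-like class and 146, 163, 177 and 233 CPM in the erythroid-like class. Cox4i1 had 871, 736, 876 and 657 CPM in NK-like cells, against 263, 452, 263 and 310 CPM in neutrophil-like cells. Among core subunits of complex I, Ndufv2, a flavoprotein part of the electron entry module, had 156, 93.9, 117 and 99.7 CPM in the NK-like class and 89.5, 85.3, 85.9 and 73.1 CPM in the B-like class. In every pair of classes just named the libraries did not overlap in their values, apart from the marginal gap for Ndufv2 (89.5 against 93.9 CPM). Sdha, the flavoprotein of complex II, had 104, 110, 107 and 100.3 CPM in the B-like class, and was at 37.3, 65.5, 37.3 and 64.4 CPM in neutrophil-like cells. For Cycs, T-like cells had 110, 125, 109 and 98.0 CPM and neutrophil-like cells 18.6, 13.1, 21.0 and 21.9 CPM. UMIs were counted at 1 end of each transcript, so CPM needs no correction for transcript length, although capture can differ between genes.

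Several complex IV subunits exist as alternative isoforms, some of which were restricted to few classes. Cox6a2, known as the heart and skeletal muscle isoform of Cox6a, was at 1215, 1249, 685 and 1288 CPM in plasmacytoid dendritic-like cells. There it had a UMI in 13 of 13, 17 of 19, 6 of 7 and 6 of 6 cells. In B-like cells it was at 0.243, 1.37, 0.382 and 0 CPM, with a UMI in 0.134%, 0.103%, 0.148% and 0% of cells at median depths of 5617, 3798.5, 4071 and 5942 UMIs, against 13963, 8929, 11122 and 12569 UMIs in the plasmacytoid cells. 0 of 1231 B-like cells in the wild-type PBS library had a UMI. The highest share in any of the 6 compared classes was 2.26%, in NK-like cells of the TRIF-KO PBS library (3 of 133 cells, exact interval 0.468% to 6.45%). Among plasma cell-like cells 1 cell per library had a UMI (12.5%, 16.7%, 9.09% and 12.5% of 8, 6, 11 and 8 cells, with 8, 1, 5 and 11 UMIs), at median depths of 43688.5, 13955, 22841 and 25620.5 UMIs. Cox6a2 lies on chromosome 7 (128205435 to 128206387, minus strand, GRCm38) and was too rare to be measured in any of the 6 classes. Cox6a1, the widely used isoform, was at 268, 243, 382 and 182 CPM in the plasmacytoid cells. Cox6a2 was above Cox6a1 in all 4 libraries of these cells and far below it in the 6 compared classes, in which Cox6a1 was measured throughout.

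Other alternative isoforms were low. Cox6b2, known as a testis isoform, was at 37.6, 33.8, 38.7 and 47.8 CPM in erythroid-like cells. B-like cells had 0.876, 1.30, 0.993 and 0.679 CPM of it. Its common partner Cox6b1 was at 117, 111, 132 and 167 CPM in the same erythroid-like cells. Cox4i2, the lung isoform, was at 0.540, 1.53, 0 and 0.570 CPM in monocyte/macrophage-like cells, and Cox7a1, a heart and muscle isoform, at 4.32, 1.53, 4.59 and 0.570 CPM. Cox8c and Ndufa4l2, which is known to be induced by low oxygen, were at most 0.540 CPM in any class and library. Ndufa4, now placed in complex IV, was at 574, 651, 570 and 557 CPM in NK-like cells and at 416, 368, 320 and 366 CPM in monocyte/macrophage-like cells, so that no value of the first overlapped those of the second. Of the 6 classes, T-like cells had the highest mean Cox7a2l level, at 606, 586, 569 and 524 CPM. B-like cells followed by their mean, with 399, 383, 369 and 337 CPM, although monocyte/macrophage-like cells were above them in the TRIF-KO PBS library. Its protein, also called SCAF1, takes part in joining complexes III and IV, and the C57BL/6 strain is known to carry a shortened allele.

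**Figure D2:**
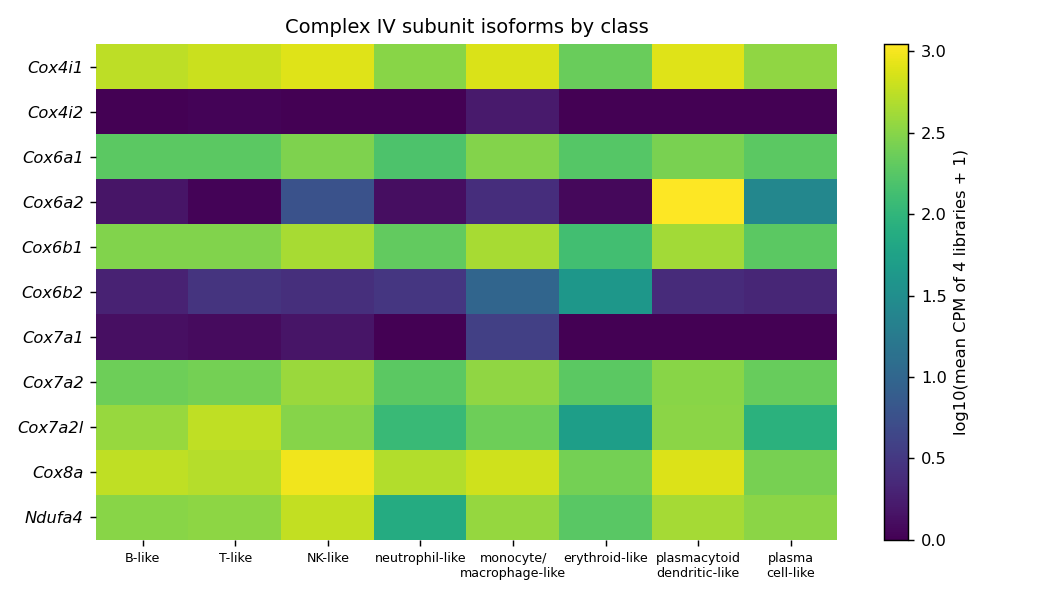
Mean CPM over the 4 libraries, as log10 of the mean CPM plus 1 (colour), of complex IV subunits and isoforms (rows) in 8 cell classes (columns). Cox6a2 is highest in the column of plasmacytoid dendritic-like cells among the 8 shown, and Cox6b2 is highest in erythroid-like cells.

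The response to TNF was small in B-like and T-like cells. Summed over the 94 genes, the TNF to PBS ratio in B-like cells was -0.11 on the log2 scale in TRIF-KO (interval -0.12 to -0.10) and 0.071 in wild-type (0.061 to 0.081). In T-like cells it was -0.030 in TRIF-KO and 0.12 in wild-type. None of the 75 genes measured in B-like cells differed by 1.5-fold or more in either genotype or between genotypes. With TNF 17 of the 75 were higher by any amount in TRIF-KO and 54 in wild-type, beside 49.5% and 35.8% of all genes. Among all 3002 measured genes of B-like cells, 3.7% were at least 1.5-fold higher and 3.46% lower with TNF in TRIF-KO, and 4.03% higher and 10.2% lower in wild-type. In T-like cells 0 of 76 genes passed 1.5-fold in TRIF-KO, beside 5.34% of all genes higher and 4.21% lower. In wild-type 1 of 76 did, beside 7.01% higher and 16.6% lower. That gene was Ndufb2, an accessory complex I subunit, at 108 CPM with TNF and 70.1 CPM with PBS in wild-type T-like cells (log2 0.62, 0.43 to 0.81), and at 94.1 and 92.98 CPM in TRIF-KO.
All measured genes together had a median of -0.14 in wild-type in both B-like and T-like cells, so that the members' medians (0.074 and 0.11) lay 0.21 and 0.24 above it. In TRIF-KO the members' medians minus the median of all genes were -0.12 and -0.065. The sign of each of these 4 sums was the same under every alternative scaling, weighting and classing tried.

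Between genotypes, most lymphocyte values were higher in TRIF-KO in the PBS libraries. With PBS, 73 of 75 genes in B-like cells and 67 of 76 in T-like cells were higher in TRIF-KO than in wild-type, with log2 ratios of the sums of 0.16 (0.15 to 0.17) and 0.13 (0.11 to 0.14). Of all measured genes 39% were higher in B-like and 37.8% in T-like cells, with medians of -0.083 and -0.095. The same ratio was 0.14 (0.096 to 0.18) in NK-like cells. After TNF the ratios of TRIF-KO to wild-type were -0.018, -0.020 and -0.025 in these 3 classes, with the NK-like interval spanning 0 (-0.068 to 0.018) and its sign turning with cluster-based classes (0.0051). The wild-type PBS library enters both the wild-type TNF response and the PBS comparison of genotypes, so these are not separate pieces of evidence. It had the lowest summed level of the 4 libraries in all 3 lymphocyte classes, and it was also the library with the fewest cells (2448). No gene passed 1.5-fold between genotypes in B-like cells, beside 0.5% higher and 1.4% lower of all genes with TNF and 0.333% higher and 1.67% lower with PBS. None did in T-like cells, beside 2.69% higher and 3.16% lower with TNF and 0.544% higher and 3.09% lower with PBS.

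NK-like cells had higher sums with TNF than with PBS, by 0.075 on the log2 scale in TRIF-KO (0.037 to 0.11) and by 0.24 in wild-type (0.19 to 0.29). These values rest on 62 to 133 cells. In wild-type ATP synthase was at 6946 CPM with TNF and 5683 CPM with PBS (log2 0.29), complex IV at 6410 and 5599 CPM (0.20), accessory complex I at 5519 and 4702 CPM (0.23) and complex III at 1888 and 1612 CPM (0.23). Complex II, at 331 and 325 CPM, had an interval that spanned 0 (-0.36 to 0.41). 62 of 76 genes were above 1 in this ratio, beside 39.4% of all genes, and 12 were at least 1.5-fold higher and 1 lower, beside 12.4% and 27.9% of all genes. In TRIF-KO 5 of 76 were higher and 1 lower, beside 9.34% and 17.4% of all genes.
Atp5g1, which encodes a copy of subunit c of the ATP synthase ring, was at 293 CPM with TNF and 184 CPM with PBS in TRIF-KO (log2 0.67, 0.29 to 1.06). In wild-type it was at 347 CPM with TNF and 197 CPM with PBS (0.82, 0.38 to 1.26). Ndufb6, an accessory complex I subunit, was at 102 and 64.6 CPM in TRIF-KO and 123 and 74.1 CPM in wild-type, again with both TNF libraries above both PBS libraries, as for 34 of the 76 genes and 23% of all genes. These were the 2 genes at least 1.5-fold higher in both genotypes (40% of the 5 in TRIF-KO and 16.7% of the 12 in wild-type), beside 5.32% of all genes. Cycs was at 214 CPM with TNF and 123 CPM with PBS in wild-type (log2 0.81, 0.25 to 1.37), but at 141 and 155 CPM in TRIF-KO. Sdha was at 69.4 CPM with TNF and 121 CPM with PBS in TRIF-KO (-0.81, -1.44 to -0.19), and at 113 and 102 CPM in wild-type. Between genotypes, 3 genes were at least 1.5-fold higher and 2 lower in TRIF-KO after TNF (beside 10.3% and 6.33% of all genes), and 4 higher and 2 lower with PBS (beside 3.44% and 6.95%). Among these, Atp5o, the stalk subunit OSCP of ATP synthase, was at 264 CPM in TRIF-KO and 161 CPM in wild-type after TNF (log2 0.72, 0.24 to 1.21).

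**Figure D3:**
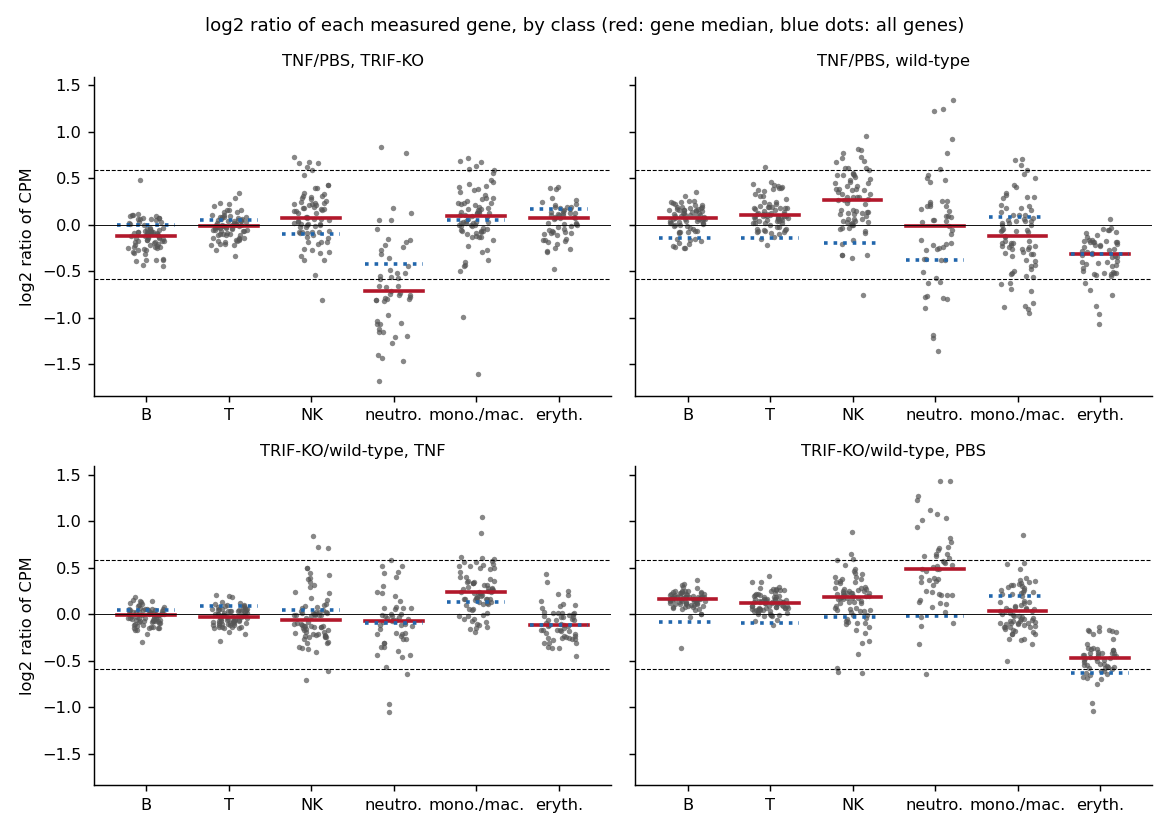
log2 ratio of CPM (y axis) of each measured gene in 6 classes (x axis) for TNF over PBS in TRIF-KO and wild-type and for TRIF-KO over wild-type after TNF and with PBS. Points are genes, red bars their median, dotted blue bars that of every gene measured in the class, and dashed lines 1.5-fold. B-like and T-like points lie inside the dashed lines except Ndufb2 in wild-type T-like cells, and the neutrophil-like points of TRIF-KO reach -1.68.

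In neutrophil-like cells nuclear and mitochondrially encoded subunits parted: nuclear subunit transcripts were lower with TNF in TRIF-KO, while the mitochondrially encoded subunits of the same complexes were higher in both genotypes. The 94 genes summed to 6436 CPM with TNF and 9596 CPM with PBS in TRIF-KO (log2 -0.58, -0.63 to -0.52). In wild-type they summed to 6823 CPM with TNF and 7312 CPM with PBS (-0.10, -0.16 to -0.036), a direction that turned to 0.29 under median-of-ratios scaling. The TRIF-KO PBS library, with 100 cells and 2929 UMIs of the set, was the highest of the 4. The 13 mitochondrially encoded genes summed to 11623 CPM with TNF and 5976 CPM with PBS in TRIF-KO (0.96, 0.89 to 1.03), and to 14750 and 7625 CPM in wild-type (0.95). mt-Co1, the catalytic subunit of complex IV, was at 2928 and 1635 CPM in TRIF-KO and at 3328 and 1973 CPM in wild-type. mt-Cytb of complex III was at 902 and 351 CPM in TRIF-KO and at 1036 and 560 CPM in wild-type. Of the 12 of these genes that were measured, 11 in TRIF-KO and 12 in wild-type were at least 1.5-fold higher with TNF, beside 14.7% and 16.6% of all genes.
All 5 complexes had lower nuclear sums with TNF in TRIF-KO, while the assembly factors of complex I (14 UMIs with PBS) and Cycs (4 UMIs) were too rare to place. Complex IV was at 1950 CPM with TNF and 2939 CPM with PBS (log2 -0.59), ATP synthase at 2003 and 2952 CPM (-0.56), core complex I at 115 and 229 CPM (-0.99), accessory complex I at 1621 and 2467 CPM (-0.61), complex III at 538 and 740 CPM (-0.46) and complex II at 136 and 210 CPM (-0.63). In wild-type, complex II was at 112 CPM with TNF and 182 CPM with PBS (-0.70, -1.20 to -0.23), whereas complex III (-0.0014) and complex IV (-0.071) had intervals that spanned 0.

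Among the 53 nuclear genes measured in neutrophil-like cells, 30 were at least 1.5-fold lower and 2 higher with TNF in TRIF-KO, beside 42.2% and 14.7% of all 2987 measured genes. In wild-type 10 were lower and 6 higher, beside 41% and 16.6%. The median of all genes was -0.43 in TRIF-KO and -0.38 in wild-type, and relative to it the nuclear members' median was -0.28 in TRIF-KO and 0.37 in wild-type. Under median-of-ratios scaling 14 genes were lower and 3 higher in TRIF-KO, and 3 lower and 17 higher in wild-type.
9 of the 53 genes were lower in both genotypes, beside 28.1% of all measured genes, so the share was below the background. They are 30% of those lower in TRIF-KO and 90% of those lower in wild-type, namely Atp5c1, Cox7a2l, Ndufa8, Ndufb11, Ndufb4, Ndufs6, Sdha, Sdhd and Uqcr11. Ndufb4, an accessory complex I subunit, was at 39.9 CPM with TNF and 105 CPM with PBS in TRIF-KO (log2 -1.39, -1.97 to -0.78), and at 30.3 and 70.4 CPM in wild-type (-1.22, -2.21 to -0.33). Cox7a2l was at 94.1 and 157 CPM in TRIF-KO and at 62.9 and 143 CPM in wild-type. For both genes each TNF library was below each PBS library, as for 27 of the 53 genes and 50.1% of all genes. Ndufs6, another accessory complex I subunit, was at 26.6 and 85.2 CPM in TRIF-KO (-1.68, -2.33 to -0.98) and at 18.6 and 31.6 CPM in wild-type.
Atp5k, the e subunit that helps ATP synthase form dimers, went the other way. It was at 157 CPM with TNF and 91.7 CPM with PBS in TRIF-KO (log2 0.78, 0.23 to 1.38), and at 161 and 85.0 CPM in wild-type (0.92, 0.42 to 1.42). Ndufb3, an accessory complex I subunit, was at 95.5 CPM with TNF and 37.6 CPM with PBS in wild-type (1.34, 0.63 to 2.06), but at 79.5 and 81.9 CPM in TRIF-KO.

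**Figure D4:**
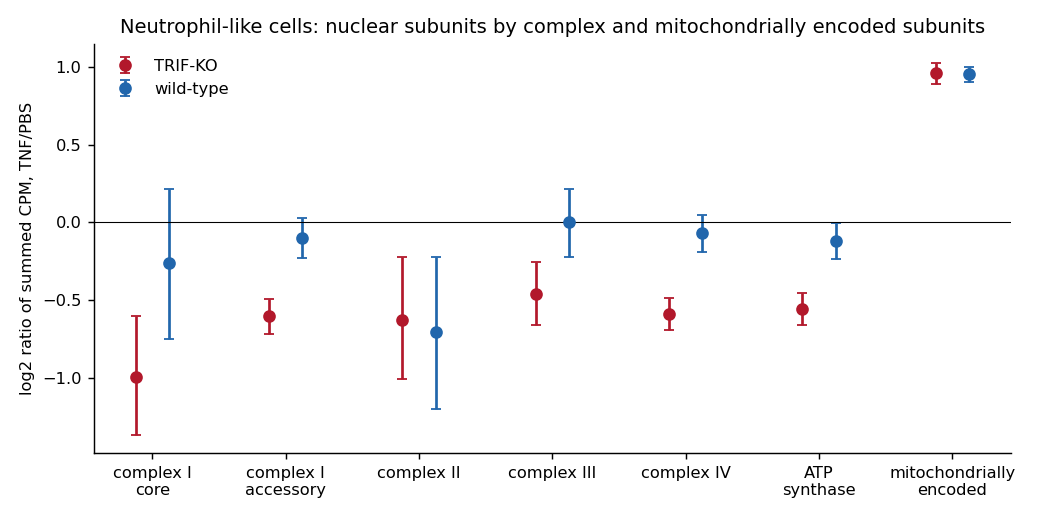
log2 ratio of summed CPM, TNF over PBS, in neutrophil-like cells (y axis) for nuclear subunits by complex and for mitochondrially encoded subunits (x axis), in TRIF-KO (red) and wild-type (blue), with exact 95% counting intervals. The mitochondrially encoded sums lie at 0.96 and 0.95, and all 6 nuclear groups in TRIF-KO lie below 0. The wild-type nuclear sum of all 94 genes changes sign under median-of-ratios scaling.

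The cells behind these values differed between treatments. Nearly all neutrophil-like cells of the TNF libraries fell in cluster 10 (347, 4, 76 and 5 cells), whereas cluster 19 (1, 96, 0 and 157 cells) took nearly all of the PBS libraries. Of the granule transcripts known from immature neutrophils, Camp was at 8551, 8178, 9744 and 2897 CPM, Ngp at 11723, 7981, 11504 and 4374 CPM and Ltf at 2334, 2084, 2047 and 1849 CPM. In pooled CPM Camp and Ltf thus differed little between the 2 TRIF-KO libraries. The number of cells rich in granule RNA did differ. Over 10 UMIs of Camp, Ngp and Ltf were found in 177 of 352 TRIF-KO TNF cells and in 4 of 100 TRIF-KO PBS cells. This limit is a fixed count, and these cells had median depths of 7562.5 and 2538 UMIs. The part of depth in the difference was not tested. Csf3r, the G-CSF receptor of mature neutrophils, was at 824, 3034, 720 and 2582 CPM. Without cells over 10 UMIs of Camp, Ngp and Ltf (175, 96, 33 and 156 cells were left, a limit chosen after seeing the data), the nuclear log2 ratio of TNF to PBS was -0.74 in TRIF-KO and 0.084 in wild-type, and the mitochondrially encoded one was 1.78 (1.70 to 1.87) in TRIF-KO and 2.23 (2.16 to 2.30) in wild-type. The mitochondrially encoded difference was thus larger without those cells. The median share of mitochondrial UMIs per cell was 0.698%, 0.370%, 0.747% and 0.278%, far from the limit of 10%. All 8 erythroid markers were detected in the TRIF-KO TNF and wild-type PBS neutrophil-like cells and 6 of 8 in the other libraries, at 5652, 534, 952 and 1524 CPM in sum, and their part in the result was not tested. The sum of all 8 B-cell markers was 62.9, 102, 170 and 97.1 CPM.
With PBS, 19 nuclear genes were at least 1.5-fold higher and 1 lower in TRIF-KO than in wild-type, beside 14.5% and 19.4% of all genes. After TNF 0 were higher and 3 lower, beside 13.8% and 16.7%. The sums differed by 0.39 with PBS (0.33 to 0.46) and by -0.084 after TNF (-0.14 to -0.028). Atp5g3, another gene for subunit c of ATP synthase, was at 81.9 CPM in TRIF-KO and 30.4 CPM in wild-type with PBS, with 25 UMIs in each. The TRIF-KO PBS cells were the shallowest of the 4 groups, at a median of 2538 UMIs per cell against 4307 in wild-type PBS cells. Their library enters both the TRIF-KO response to TNF and the PBS comparison of genotypes, so these are not separate pieces of evidence.

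In monocyte/macrophage-like cells the sum differed little while single subunits moved apart. The TNF to PBS ratio of the sum was 0.060 in TRIF-KO (0.037 to 0.083), turning to -0.062 with cells weighted equally, and -0.068 in wild-type (-0.099 to -0.037), turning to 0.016 with at most 5% mitochondrial UMIs. 6 of 77 genes were at least 1.5-fold higher and 2 lower with TNF in TRIF-KO, beside 22.6% and 19.7% of all genes. In wild-type 4 were higher and 9 lower, beside 27.4% and 22.2%. These shares are below the background in every direction.
Cox7a2l was at 143 CPM with TNF and 436 CPM with PBS in TRIF-KO (log2 -1.61, -1.82 to -1.39), and at 125 and 241 CPM in wild-type (-0.94, -1.30 to -0.60). Both TNF libraries were below both PBS libraries, as for 15 of the 77 measured members and 29.1% of all genes. The gene lies on chromosome 17 (83501918 to 83517330, minus strand, GRCm38). Ndufa6, an accessory subunit of complex I that belongs to the LYR protein family, was at 162 and 322 CPM in TRIF-KO (-0.99, -1.21 to -0.77) and at 142 and 260 CPM in wild-type (-0.87, -1.21 to -0.55). These were the only 2 genes at least 1.5-fold lower in both genotypes, which is 2 of 2 in TRIF-KO and 2 of 9 in wild-type, beside 13.8% of all genes. Ndufs7, a core subunit that carries an iron-sulfur cluster, was at 67.5 and 94.9 CPM in TRIF-KO and at 53.5 and 99.8 CPM in wild-type (-0.90, -1.47 to -0.37).
Uqcrb, a small subunit of complex III, went in the other direction. It was at 330 CPM with TNF and 201 CPM with PBS in TRIF-KO (0.72, 0.51 to 0.93), and at 306 and 203 CPM in wild-type (0.59, 0.33 to 0.85). Sdhc, a membrane anchor of complex II, was at 93.9 and 58.9 CPM in TRIF-KO and 79.5 and 49.0 CPM in wild-type, and the assembly factor Ndufaf8 at 89.6 and 55.9 CPM in TRIF-KO and 96.4 and 61.6 CPM in wild-type. With Uqcrb these made up the 3 genes at least 1.5-fold higher in both genotypes (50% of the 6 in TRIF-KO and 75% of the 4 in wild-type), beside 16.3% of all genes. Atp5b, the catalytic beta subunit of ATP synthase, was at 435 and 289 CPM in TRIF-KO (0.59, 0.41 to 0.77) and at 385 and 316 CPM in wild-type. Atp5md, a small membrane subunit of ATP synthase, was at 369 and 243 CPM in TRIF-KO and at 413 and 292 CPM in wild-type. For these 5 genes, chosen for their size with TNF, each TNF library was above each PBS library, as for 23 of the 77 measured members and 37% of all genes.

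**Figure D5:**
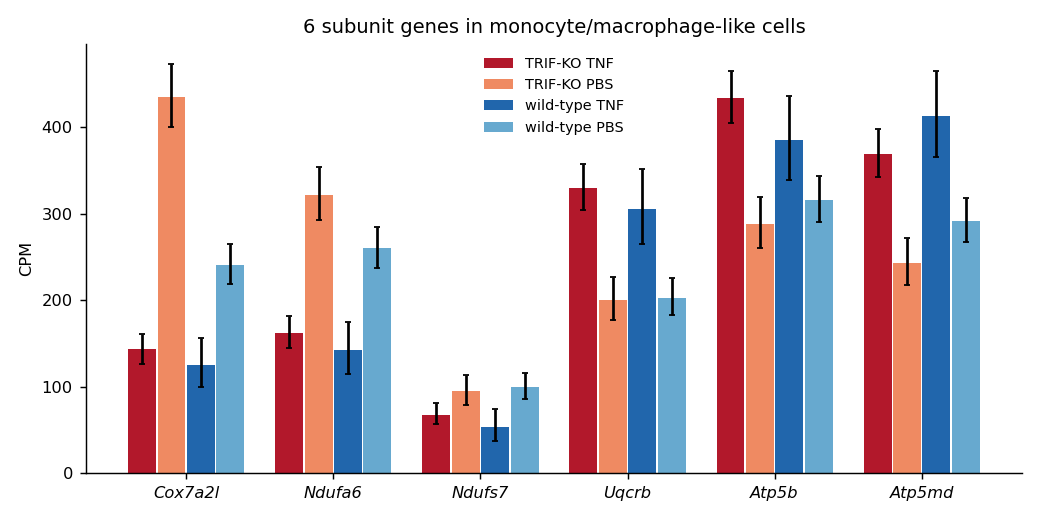
CPM (y axis) of 6 subunit genes (x axis) in monocyte/macrophage-like cells, 1 bar per library, with exact 95% Poisson intervals that cover counting error only. Cox7a2l lies at 143 and 125 CPM in the TNF libraries and at 436 and 241 CPM in the PBS libraries, and Uqcrb at 330 and 306 CPM in the TNF libraries and at 201 and 203 CPM in the PBS libraries.

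The clusters that made up the class differed by treatment as well. TNF libraries held clusters 12 (213, 5, 84 and 1 cells) and 23 (77, 0, 43 and 0 cells), and PBS libraries held clusters 21 (1, 102, 0 and 74 cells) and 22 (0, 99, 1 and 46 cells). Cells were therefore also split, after seeing the data, into those gated as macrophages (72.9%, 50.9%, 71.2% and 41.2% of cells) and the others. In the macrophage part the sum was at 17297, 13855, 15202 and 13886 CPM, so that the TNF to PBS ratio was 0.32 in TRIF-KO and 0.13 in wild-type. The wild-type PBS library stood apart there, with mitochondrially encoded genes at 45293, 45347, 46875 and 13253.5 CPM. The part of haemoglobin-rich cells in the macrophage values was not tested. In the other cells it was at 21129, 20907, 18971 and 20622 CPM, with ratios of 0.015 (-0.012 to 0.042) and -0.12 (-0.16 to -0.082). Cox7a2l was lower with TNF in each part: at 143 and 315 CPM in TRIF-KO macrophages (log2 -1.14), 129 and 180 CPM in wild-type macrophages (-0.48, -1.07 to 0.080), 143 and 483 CPM in the other TRIF-KO cells (-1.75) and 123 and 275 CPM in the other wild-type cells (-1.16). Uqcrb was higher in all 4, by 0.60, 1.19, 0.82 and 0.42 in the same order. Ndufa6 was at 167 and 381 CPM in the other TRIF-KO cells (-1.19) and at 165 and 302 CPM in the other wild-type cells (-0.87), and in macrophages at 154 and 174 CPM in TRIF-KO (-0.17, -0.63 to 0.30) and at 110 and 183 CPM in wild-type (-0.73, -1.36 to -0.14). Cycs was higher with TNF in the macrophage part, at 171 CPM with TNF and 78.8 CPM with PBS in TRIF-KO (1.12) and at 173 and 98.7 CPM in wild-type (0.81). In the other cells Cycs was at 195 and 136 CPM in TRIF-KO (0.52, 0.20 to 0.84) and at 207 and 209 CPM in wild-type (-0.013, -0.40 to 0.36).

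Haemoglobin made up 0.881%, 3.18%, 2.12% and 15.2% of the UMIs of monocyte/macrophage-like cells, and the erythroid markers, 7 of 8 detected and 8 of 8 in the wild-type PBS library, summed to 3118, 10744, 8346 and 55407 CPM. Without cells over 5% haemoglobin the ratios of TNF to PBS were 0.0073 in TRIF-KO and -0.21 in wild-type. Between genotypes, the sum was higher in TRIF-KO after TNF (0.18, 0.15 to 0.21) and remained so without those cells (0.16), while with PBS it was 0.052 and turned to -0.050 without them. The 9 neutrophil markers (8, 8, 8 and 9 detected) summed to 1119, 534, 9823 and 2818 CPM in this class, highest in the wild-type TNF library, and their part in these differences was not tested. After TNF 5 genes were at least 1.5-fold higher and 0 lower in TRIF-KO than in wild-type, beside 15.2% and 6.66% of all genes. Sdhd, a membrane anchor of complex II, was at 75.6 CPM in TRIF-KO and 36.7 CPM in wild-type (log2 1.04, 0.41 to 1.73, from 140 and 24 UMIs). With PBS the 1 gene past 1.5-fold was Cox7a2l, higher in TRIF-KO by 0.85 (0.67 to 1.04), beside 17.2% of all genes higher and 5.36% lower.

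In erythroid-like cells the pooled sum had no direction that held across settings. The log2 ratio of TNF to PBS was 0.042 in TRIF-KO (0.023 to 0.062) and -0.31 in wild-type (-0.33 to -0.29), and both signs turned under median-of-ratios scaling (-0.14 and 0.022), with equally weighted cells (-0.10 and 0.039) and with cluster-based classes (-0.25 and 0.069). The TRIF-KO to wild-type ratio with PBS was -0.47 and turned to 0.16 under median-of-ratios scaling, where the median of all measured genes had been -0.63. None of 56 genes passed 1.5-fold with TNF in TRIF-KO, beside 6.89% of all genes higher and 0.721% lower. In wild-type 0 were higher and 6 lower, beside 1.68% and 25.9%. With PBS 0 were higher and 12 lower in TRIF-KO than in wild-type, beside 0.0801% and 55.8%, and after TNF none passed, beside 1.76% and 8.97%.
The level differed widely between clusters of the class. Cluster 11, which carried cell-cycle transcripts at 14265, 14639, 14484 and 14772 CPM, held 14.1%, 14.4%, 27.5% and 24.2% of the erythroid-like cells but 33.0%, 44.7%, 53.9% and 33.3% of the UMIs of the 94 genes. There the sum was at 11366, 14155, 11704 and 11047 CPM, against 1161, 1340, 1500 and 1507 CPM in cluster 6, the lowest level in the full total. In a total without haemoglobin the gap was much smaller, at 22388, 26412, 23049 and 20992 CPM in cluster 11 and 14666, 18096, 20072 and 20968 CPM in cluster 6. On that scale cluster 7 lay below cluster 6 in every library, at 12210, 14346, 13073 and 11863 CPM. 26 cells of cluster 20 in the TRIF-KO TNF library, at 33829 CPM, held 45.9% of that library's UMIs of the set. By its markers cluster 20 was named a progenitor cluster. Without haemoglobin these 26 cells were at 33875 CPM, so they held little haemoglobin. The pooled TRIF-KO TNF values therefore do not stand for haemoglobin-rich cells alone. In the wild-type PBS library clusters 6, 7, 11 and 17 held 60, 87, 63 and 34 of the 260 cells. They held 3.93%, 8.28%, 33.3% and 2.61% of that library's UMIs of the set. The rest of its sum thus came from few cells, 11 of them in cluster 20. The median cell devoted 0.152%, 0.168%, 0.259% and 0.233% of its UMIs to the 94 genes. Atp5g1 was at 106, 80.0, 78.5 and 164 CPM, with up to 119 UMIs in 1 cell of the wild-type PBS library.

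Other mitochondrial and energy genes were set beside the members by median log2 ratio. In neutrophil-like cells with TNF, the genes of the tricarboxylic acid cycle and of pyruvate entry into it had a median of -1.01 in TRIF-KO. Of these, 4 of 6 measured were at least 1.5-fold lower and 0 higher, beside 42.2% of all genes lower. In wild-type their median was -0.39, with 2 of 6 lower beside 41% of all genes, which is no more than the background. Mitochondrial import genes and carriers had medians of -1.07 (5 of 7 lower) in TRIF-KO and -0.51 (3 of 7 lower and 1 higher, near the background) in wild-type. Glycolytic genes there had medians of -0.0064 (4 of 15 higher and 2 lower) and -0.53 (1 higher and 3 lower). Of all genes 14.7% and 16.6% were higher and 42.2% and 41% lower. In monocyte/macrophage-like cells glycolytic genes had medians of 0.65 in TRIF-KO (8 of 15 higher and 1 lower, beside 22.6% and 19.7% of all genes) and 0.36 in wild-type (5 higher and 1 lower, beside 27.4% and 22.2%), while the medians of the nuclear oxidative phosphorylation genes were 0.096 and -0.12. In NK-like cells mitochondrial ribosome genes had medians of 0.21 (4 of 20 higher and 1 lower) and 0.27 (7 higher and 3 lower), where 9.34% and 12.4% of all genes were higher and 17.4% and 27.9% lower, beside 0.075 and 0.27 for the oxidative phosphorylation genes. In B-like cells the medians of the lists of mitochondrially encoded, tricarboxylic acid cycle and pyruvate entry, glycolytic, mitochondrial ribosome and import genes lay between -0.043 and 0.14 in either genotype.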

How the data were processed

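Droplet-based single-cell libraries of 4 mouse spleen samples were used, 1 per group. The deposited values are UMI counts per gene and cell, and per the file headers the matrices were written by Cell Ranger 6.0.1, while the submitters' processing notes name Cell Ranger 3.0, Seurat 4.1.1 and mm10. Barcodes stayed in when 200 genes or more were detected and mitochondrial UMIs did not exceed 10% (11.6%, 10.8%, 22.4% and 6.3% of barcodes exceeded this limit), and the highest Scrublet scores were removed as doublets (455, 295, 288 and 54 cells, at 0.8% per 1000 barcodes).

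A cell joined a class with at least 3 of its markers detected and at least 2 more than for any other class, a rule set after seeing cell numbers, and the names rest on this rebuilt classing. Raw counts were summed per class and library and given as CPM, so cells with more UMIs weigh more. Genes past 1.5-fold are a size rule, not a test. The 95% intervals are exact Poisson (sums), binomial (ratios and shares). Clusters came from Scanpy 1.11.5 (2000 variable genes, 30 components, 15 neighbours, Leiden). Code ran in Python 3.11.15 and was tested on simulated data.

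Members and lists were chosen with earlier results of these data known. Named genes were the 2 with most UMIs per role, isoform sets, complex II, Cycs, up to 3 genes past 1.5-fold per class, comparison and direction by the interval bound nearest to 1, and class-restricted genes. Genes past 1.5-fold in both genotypes, Camp, Ngp, Csf3r, mt-Co1 and mt-Cytb were named after their values were seen. Alternatives were another scaling, another total, cluster-based classes, equal cell weights, a stricter mitochondrial filter and no minimum CPM.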

Additional observations from a re-analysis of the deposited data

Results flagged for a closer look

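The response to TNF ran in opposite directions in the 2 genotypes for 4 class sums and 2 single genes. With 1 library per group the difference between responses was not tested. As the log2 response in TRIF-KO minus that in wild-type, the summed 94 genes gave -0.18 in B-like cells and -0.15 in T-like cells, where the sum was lower with TNF in TRIF-KO and higher in wild-type. The difference was 0.13 in monocyte/macrophage-like cells and 0.35 in erythroid-like cells, where the sum was higher with TNF in TRIF-KO and lower in wild-type, 2 classes in which the direction of each response turned under some alternatives. In erythroid-like cells the difference itself turned under 4 of 5 alternatives. In erythroid-like cells Atp5g1 gave 1.46, with 106 CPM with TNF and 80.0 CPM with PBS in TRIF-KO and 78.5 and 164 CPM in wild-type. Atp5g2, another gene for subunit c of ATP synthase, gave 1.16 there, with 81.8 and 61.6 CPM in TRIF-KO and 70.5 and 119 CPM in wild-type.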

How the results depend on the processing

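The direction of all 4 comparisons held in B-like, T-like and NK-like cells under each scaling, total, classing, cell weight and mitochondrial filter tried, except that TRIF-KO against wild-type after TNF in NK-like cells, whose interval spans 0, was 0.0051 with cluster-based classes. In neutrophil-like cells it held for all comparisons except TNF against PBS in wild-type, and in monocyte/macrophage-like cells for TRIF-KO against wild-type after TNF alone. In erythroid-like cells each comparison turned under at least 1 alternative. No paired analysis was possible because each group is 1 library, and for the same reason no library could be left out of a group. The splits of monocyte/macrophage-like cells and the exclusions of haemoglobin-rich and granule-RNA-rich cells were chosen after seeing the data. Precision was limited by cell number in NK-like and neutrophil-like cells (62 to 352 cells per library). Values are log2 ratios of summed CPM, or counts or CPM where so named, and the cause of each difference from the reported value was not tested. Under median-of-ratios scaling, the TNF to PBS ratio in TRIF-KO was -0.094 in B-like, -0.072 in T-like, 0.17 in NK-like, -0.16 in neutrophil-like and 0.0083 in monocyte/macrophage-like cells and it turned to -0.14 in erythroid-like cells. There, the TNF to PBS ratio in wild-type was 0.21 in B-like, 0.25 in T-like, 0.42 in NK-like and -0.14 in monocyte/macrophage-like cells and it turned to 0.29 in neutrophil-like and 0.022 in erythroid-like cells. With this choice, the TRIF-KO to wild-type ratio after TNF was -0.060 in B-like, -0.11 in T-like, -0.013 in neutrophil-like and 0.040 in monocyte/macrophage-like cells and it turned to 0.0053 in erythroid-like cells. In the same way, the TRIF-KO to wild-type ratio with PBS was 0.24 in B-like, 0.21 in T-like and 0.19 in NK-like cells and it turned to -0.11 in monocyte/macrophage-like and 0.16 in erythroid-like cells. Likewise, the response in TRIF-KO minus that in wild-type was -0.30 in B-like, -0.32 in T-like and -0.25 in NK-like cells and it turned to -0.16 in erythroid-like cells. Here, genes past 1.5-fold summed over classes numbered 18 lower for TNF against PBS in TRIF-KO (reported 33), 46 higher for TNF against PBS in wild-type (reported 23) and 2 lower for TRIF-KO against wild-type with PBS (reported 15). With a total without mitochondrial, ribosomal protein, haemoglobin and immunoglobulin genes, the TNF to PBS ratio in TRIF-KO was -0.080 in B-like, -0.040 in T-like and 0.20 in NK-like cells and it turned to -0.059 in monocyte/macrophage-like and -0.11 in erythroid-like cells. In the same way, the TNF to PBS ratio in wild-type was 0.17 in B-like, 0.22 in T-like, 0.38 in NK-like, -0.36 in monocyte/macrophage-like and -0.0020 in erythroid-like cells. Likewise, the TRIF-KO to wild-type ratio after TNF was -0.063 in T-like cells and it turned to 0.00078 in erythroid-like cells. Here, the TRIF-KO to wild-type ratio with PBS was 0.24 in B-like and 0.20 in T-like cells and it turned to -0.13 in monocyte/macrophage-like and 0.11 in erythroid-like cells. Further, the response in TRIF-KO minus that in wild-type was -0.25 in B-like, -0.26 in T-like and 0.30 in monocyte/macrophage-like cells and it turned to -0.11 in erythroid-like cells. In this setting, the median level was 25617 CPM in B-like, 31095 CPM in T-like, 29172 CPM in NK-like, 7461 CPM in neutrophil-like, 24935 CPM in monocyte/macrophage-like and 28364 CPM in erythroid-like cells. Also, genes past 1.5-fold summed over classes numbered 3 lower for TRIF-KO against wild-type with PBS (reported 15). With classes taken from clusters, the TNF to PBS ratio in TRIF-KO was -0.016 in T-like cells and it turned to -0.032 in monocyte/macrophage-like and -0.25 in erythroid-like cells. Here, the TNF to PBS ratio in wild-type was 0.093 in T-like, -0.035 in neutrophil-like and -0.17 in monocyte/macrophage-like cells and it turned to 0.069 in erythroid-like cells. Further, the TRIF-KO to wild-type ratio after TNF was -0.0040 in T-like, 0.11 in monocyte/macrophage-like and -0.49 in erythroid-like cells. In this setting, the TRIF-KO to wild-type ratio with PBS was 0.11 in T-like and -0.16 in erythroid-like cells and it turned to -0.026 in monocyte/macrophage-like cells. Also, the response in TRIF-KO minus that in wild-type was -0.11 in T-like cells and it turned to -0.32 in erythroid-like cells. By the same choice, the median level was 15013 CPM in B-like, 16625 CPM in T-like, 7149 CPM in neutrophil-like, 19109 CPM in monocyte/macrophage-like and 4883 CPM in erythroid-like cells. In turn, genes past 1.5-fold summed over classes numbered 5 higher for TRIF-KO against wild-type after TNF (reported 8), 19 lower for TRIF-KO against wild-type after TNF (reported 5) and 2 lower for TRIF-KO against wild-type with PBS (reported 15). With cells weighted equally, the TNF to PBS ratio in TRIF-KO was -0.12 in B-like, 0.036 in NK-like and -0.65 in neutrophil-like cells and it turned to -0.062 in monocyte/macrophage-like and -0.10 in erythroid-like cells. In this setting, the TNF to PBS ratio in wild-type was 0.099 in T-like, -0.19 in neutrophil-like and -0.18 in monocyte/macrophage-like cells and it turned to 0.039 in erythroid-like cells. Also, the TRIF-KO to wild-type ratio after TNF was -0.0048 in T-like, -0.011 in neutrophil-like, 0.11 in monocyte/macrophage-like and -0.46 in erythroid-like cells. By the same choice, the TRIF-KO to wild-type ratio with PBS was -0.32 in erythroid-like cells and it turned to -0.0024 in monocyte/macrophage-like cells. In turn, the response in TRIF-KO minus that in wild-type was -0.12 in T-like cells and it turned to -0.14 in erythroid-like cells. With at most 5% mitochondrial UMIs, the TNF to PBS ratio in TRIF-KO was 0.10 in monocyte/macrophage-like and 0.021 in erythroid-like cells. By the same choice, the TNF to PBS ratio in wild-type was 0.095 in B-like and -0.16 in erythroid-like cells and it turned to 0.016 in monocyte/macrophage-like cells. In turn, the TRIF-KO to wild-type ratio after TNF was -0.0014 in B-like, -0.033 in T-like and -0.14 in erythroid-like cells. In this case, the TRIF-KO to wild-type ratio with PBS was 0.20 in B-like, 0.095 in monocyte/macrophage-like and -0.32 in erythroid-like cells. There, the response in TRIF-KO minus that in wild-type was -0.20 in B-like, -0.17 in T-like, 0.086 in monocyte/macrophage-like and 0.19 in erythroid-like cells. With at least 20 UMIs and no minimum CPM, genes past 1.5-fold summed over classes numbered 27 higher for TNF against PBS in TRIF-KO (reported 13), 57 lower for TNF against PBS in wild-type (reported 26), 19 higher for TRIF-KO against wild-type after TNF (reported 8), 14 lower for TRIF-KO against wild-type after TNF (reported 5), 39 higher for TRIF-KO against wild-type with PBS (reported 24) and 50 lower for TRIF-KO against wild-type with PBS (reported 15). In macrophage-gated cells alone, the TNF to PBS ratio in TRIF-KO was 0.32 in monocyte/macrophage-like cells. With this choice, the TNF to PBS ratio in wild-type turned to 0.13 in monocyte/macrophage-like cells. In the same way, the TRIF-KO to wild-type ratio with PBS turned to -0.0033 in monocyte/macrophage-like cells. In the other cells of that class, the TNF to PBS ratio in TRIF-KO was 0.015 in monocyte/macrophage-like cells. Likewise, the TNF to PBS ratio in wild-type was -0.12 in monocyte/macrophage-like cells. Here, the TRIF-KO to wild-type ratio with PBS was 0.020 in monocyte/macrophage-like cells. Without cells over 5% haemoglobin UMIs, the TNF to PBS ratio in TRIF-KO was 0.0073 in monocyte/macrophage-like cells. Further, the TNF to PBS ratio in wild-type was -0.21 in monocyte/macrophage-like cells. In this setting, the TRIF-KO to wild-type ratio with PBS turned to -0.050 in monocyte/macrophage-like cells. Without cells over 10 UMIs of Camp, Ngp and Ltf, the TNF to PBS ratio in TRIF-KO was -0.74 in neutrophil-like cells. Also, the TNF to PBS ratio in wild-type turned to 0.084 in neutrophil-like cells. By the same choice, the TRIF-KO to wild-type ratio after TNF was -0.36 in neutrophil-like cells. In turn, the TRIF-KO to wild-type ratio with PBS was 0.46 in neutrophil-like cells.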
